A study of Mus musculus with 56 samples.

Results

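The FoxO group followed here holds 8 genes: the forkhead transcription factors Foxo1, Foxo3 and Foxo4, and 5 genes known as their targets in fasting or stress, Depp1, Eif4ebp1, Cited2, Sesn1 and Sesn3. Members were chosen by gene symbol with earlier results of these data known, and were matched to the gene IDs of the deposited table. All 8 were found among its 19072 genes. The shares of all genes given beside counts of members therefore describe the background and are not an independent test. The RNA came from the gastrocnemius muscle of the calf, taken from C57BL/6J females in 2 feeding regimens. In daytime-restricted feeding (DRF) food was given in the light phase, and in nighttime-restricted feeding (NRF), the reference, in the dark phase in which mice normally eat. Each regimen was sampled at zeitgeber time (ZT, hours from lights on) 0, 4, 8, 12, 16, 20 and 24, with 4 libraries per time, which makes 28 DRF and 28 NRF libraries. The light cycle was 12 h on and 12 h off for all mice, which were 7 weeks old at the start, ate normal chow freely for 7 days and then followed their regimen for 7 days, and their age was 9 weeks at sampling. No genetic change or agent is named in the labels for either regimen, and the labels do not state the hours of the feeding windows.

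FoxO factors are held outside the nucleus when insulin signals through PI3 kinase and Akt, which phosphorylates them. When insulin is low they enter the nucleus and bind DNA, and in skeletal muscle they are known for driving genes of proteolysis, autophagy and fuel switching during fasting. Most of that control acts on the proteins, while the transcripts of the factors themselves also respond to fasting and glucocorticoids, so transcript levels report only a part of FoxO activity. Among the targets, DEPP1 is a small protein induced by progestins and by fasting, 4E-BP1 (the product of Eif4ebp1) binds eIF4E and blocks cap-dependent translation when mTORC1 is inactive, CITED2 binds the coactivators CBP and p300 and limits their use by HIF-1, and the sestrins SESN1 and SESN3 are stress-induced proteins that restrain mTORC1.

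The libraries held 28173218 to 36183610 recovered reads, of which the 10 most abundant genes took 19.5% to 32.8%. Markers of skeletal muscle (Ckm, Acta1, Myh4, Myh1, Ttn and Tnnt3) were detected in every library and summed to 111252 to 232916 CPM (reads scaled to a common library size) in DRF and 102896 to 199489 CPM in NRF. Slow-fibre markers (5 genes, Myh7 among them) differed widely between libraries of a group, with summed levels of 12.9 to 2815 CPM in DRF and 40.3 to 3142 CPM in NRF. The library least like the others of its group was replicate 1 of DRF at ZT20, with a mean correlation of 0.959 across genes. No pair of libraries shared more than 1.08% of equal gene counts. The labels do not state that the 4 libraries of a group came from separate mice, so p-values measure the spread between these libraries. Strand marking is not mentioned for these libraries, and sense and antisense reads therefore cannot be told apart. In whole muscle, fewer cells of a type and less RNA per cell cannot be told apart.

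Per length, Foxo4 was the most abundant member by far. Its level averaged 49.2 ± 5.71 CPM per kb over the 56 libraries (SD), against 6.25 ± 1.36 CPM per kb for Foxo3 and 3.9 ± 1.87 CPM per kb for Foxo1. Among the targets, Eif4ebp1 (21.9 ± 4.03 CPM per kb) and Cited2 (19.4 ± 5.92 CPM per kb) were the highest, and their ranges over libraries overlapped. Sesn1 stood at 11.7 ± 2.67 CPM per kb. Depp1 averaged 9.31 CPM per kb with a median of 4.99 CPM per kb, since a few libraries reached up to 65.6 CPM per kb. The ranges of Sesn1, Depp1, Foxo3 and Foxo1 overlapped. Sesn3 was the lowest at 0.192 ± 0.0458 CPM per kb, with 44 to 188 reads per library, and no library of Sesn3 reached the lowest level of any other member. Lowest read counts of the other members were 81 reads for Depp1 and 573 reads or more for the remaining 6.

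The 250 bases before the annotated starts of Foxo1, Depp1 and Cited2 are shown because these 3 genes had daily curves that differed between the regimens. Windows were taken from RefSeq on GRCm38.p6, where 6 members had an entry, and capitals mark matches to 4 motifs searched on both strands: the FoxO motif GTAAACA, its insulin-response variant CAAAACA, the clock E-box CACGTG and the palindromic glucocorticoid response element. No motif letters overlapped another match.
Foxo1, chr3:52268087-52268336, plus strand: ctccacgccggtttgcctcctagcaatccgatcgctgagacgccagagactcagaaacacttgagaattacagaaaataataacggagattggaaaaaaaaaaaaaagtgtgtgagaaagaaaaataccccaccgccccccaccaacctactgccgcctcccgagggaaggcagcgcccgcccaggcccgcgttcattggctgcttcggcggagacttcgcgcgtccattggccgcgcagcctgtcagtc
Depp1, chr6:116650434-116650683, plus strand: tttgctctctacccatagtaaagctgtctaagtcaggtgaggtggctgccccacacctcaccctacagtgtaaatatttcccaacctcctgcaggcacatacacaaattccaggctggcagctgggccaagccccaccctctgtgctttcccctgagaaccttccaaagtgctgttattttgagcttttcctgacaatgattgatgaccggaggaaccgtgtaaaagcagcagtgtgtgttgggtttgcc
Cited2, chr10:17722978-17723227, plus strand: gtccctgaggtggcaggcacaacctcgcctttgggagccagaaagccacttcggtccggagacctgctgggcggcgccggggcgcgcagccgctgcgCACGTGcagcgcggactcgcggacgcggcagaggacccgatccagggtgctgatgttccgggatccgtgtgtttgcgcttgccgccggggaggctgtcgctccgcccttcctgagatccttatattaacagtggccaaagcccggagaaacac
The Cited2 window held CACGTG at positions -153 to -148 from its start, and no other match to these 4 motifs was found in the windows of the 6 members. The search took the fixed letters only, so near variants, such as GTAAATA in the Depp1 window, were not counted. Of 32851 promoter windows searched, 6.02% held CACGTG, 3.17% GTAAACA, 5.56% CAAAACA and 0.00913% the glucocorticoid response element.

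Foxo1 (gene 56458, chromosome 3, 52268337 to 52350109, GRCm38.p6), the family member most studied in fasting muscle, was highest at ZT16 in both regimens and had a further high at the end of the dark phase in DRF. At ZT16 its level was 34.2, 91.8, 48.7 and 67.8 CPM in DRF libraries, against 79.5, 56.9, 67.6 and 25.7 CPM in NRF libraries. The regimens overlapped there, and both groups spread widely (means 60.6 ± 24.9 CPM in DRF and 57.4 ± 23.1 CPM in NRF, SD, n = 4 each). At ZT0 it was 69.3, 28.1, 54 and 28 CPM in DRF, against 22.8, 25.2, 23 and 23.6 CPM in NRF. At ZT24 it was 44.1, 33.8, 43.5 and 45 CPM in DRF, against 21, 26.9, 22.6 and 25.8 CPM in NRF. Every DRF library lay above every NRF library at both of these times. At ZT12, 29.4, 25.7, 25.3 and 24.6 CPM in DRF stood against 37.8, 42.1, 46.2 and 29.3 CPM in NRF. Only the lowest NRF library reached the DRF range at ZT12. From ZT4 to ZT8 Foxo1 stayed between 18.9 and 26.4 CPM in DRF and between 20.2 and 24.9 CPM in NRF.

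Foxo3 (gene 56484, chromosome 10, 42181845 to 42276695), known in muscle for driving autophagy and ubiquitin ligase genes, followed a similar but flatter course. Its highest mean was 67 ± 12 CPM at ZT16 in DRF and 58.6 ± 3.21 CPM at ZT20 in NRF (SD, n = 4 each). At ZT24 it was 63.8, 47.7, 52.7 and 49.3 CPM in DRF, against 36.9, 42.6, 38.4 and 41.8 CPM in NRF. The DRF libraries all lay above the NRF libraries at ZT24 and all below them at ZT12 and ZT20. At ZT12 the means were 39.9 ± 2.49 CPM in DRF and 48.1 ± 3.42 CPM in NRF, and at ZT20 they were 49 ± 6.99 CPM in DRF and 58.6 ± 3.21 CPM in NRF.

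Foxo4 (gene 54601, chromosome X, 101254261 to 101260873), the family member with the steadiest transcript, ranged from 124 to 193 CPM in DRF and from 125 to 219 CPM in NRF. Group means lay between 156 and 184 CPM in DRF and between 150 and 203 CPM in NRF. The regimens overlapped at 6 of the 7 times. At ZT20, 165, 180, 185 and 188 CPM in DRF lay below 190, 203, 199 and 219 CPM in NRF, a difference of -0.18 ± 0.11 log2 units (SE) that missed the test (limma with Benjamini-Hochberg adjustment, adjusted p = 0.369).

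**Figure D1:**
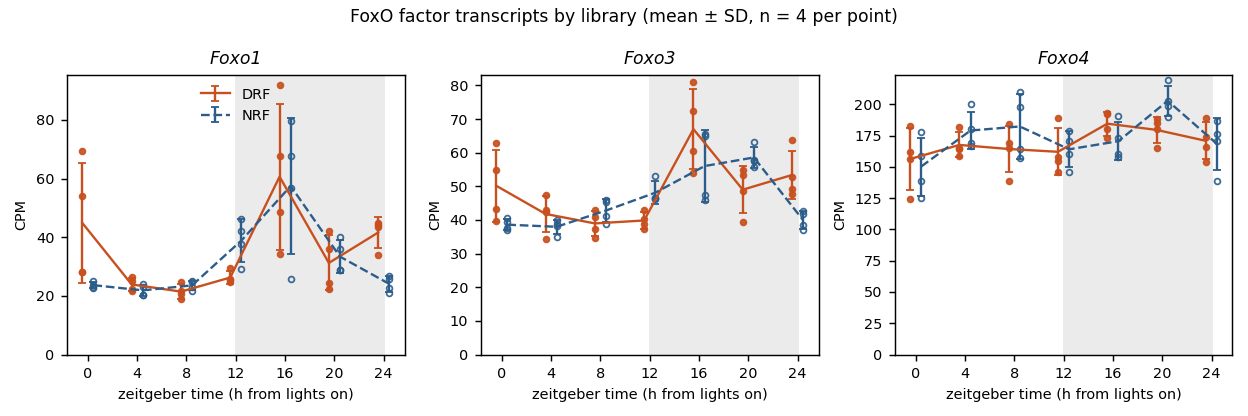
Level in CPM of the 3 FoxO factors at each zeitgeber time (grey, dark phase) in DRF (filled, solid line) and NRF (open, dashed line); points are libraries, and lines and bars are means ± SD of 4. Foxo1 means reach 60.6 CPM in DRF and 57.4 CPM in NRF at ZT16, at ZT0 and ZT24 every DRF library lies above every NRF library, and Foxo4 means stay between 150 and 203 CPM.

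Depp1 (gene 213393, chromosome 6, 116650684 to 116652847) had the largest difference between the regimens among the 8 members, at ZT24. At ZT24 it was 86.7, 8.53, 65.8 and 71.5 CPM in DRF, against 2.82, 4.8, 2.63 and 4.51 CPM in NRF. At ZT0 it was 89, 13.3, 15 and 5.66 CPM in DRF, against 4.93, 2.91, 4.15 and 3.15 CPM in NRF. All DRF libraries lay above all NRF libraries at both times, yet they fell into 4 libraries at 65.8 CPM or above and 4 at 15 CPM or below. In NRF the highest mean came at ZT12, where the libraries stood at 17.6, 15.5, 8.15 and 7.27 CPM, against 3.49, 8.19, 7.58 and 8.2 CPM in DRF at that time. Between ZT4 and ZT8 the level was 3.17 to 10.6 CPM in DRF and 2.8 to 14.3 CPM in NRF.

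Cited2 (gene 17684, chromosome 10, 17723228 to 17725674) was highest at the end of the dark phase in DRF and in the light phase in NRF. DRF had its highest mean at ZT24, with 78.6, 51.3, 77.5 and 77.8 CPM in DRF, against 48.7, 37.5, 25.2 and 37.1 CPM in NRF. NRF had its highest mean in the light at ZT8, with 48.3, 45.3, 48.5 and 44.9 CPM in DRF, against 65.4, 65.1, 66.6 and 72.4 CPM in NRF. The groups did not overlap at either time. At ZT16 the DRF libraries (45.9, 33, 50 and 36.3 CPM) also lay above the NRF libraries (30.1, 27.7, 27.3 and 25.2 CPM), and at ZT20 the means were 67.3 ± 8.05 CPM in DRF and 47.8 ± 5.95 CPM in NRF with no overlap. The lowest mean was 38.5 ± 3.33 CPM in DRF, at ZT12, and 27.6 ± 2.03 CPM in NRF, at ZT16 (SD, n = 4 each).

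Eif4ebp1 (gene 13685, chromosome 8, 27260327 to 27275656) was somewhat higher in DRF through most of the day rather than shifted in time. At ZT24 it was 62.9, 46.5, 55.8 and 62.3 CPM in DRF, against 41.9, 42.7, 46.1 and 40 CPM in NRF. At ZT4 it was 44.7, 46.4, 53.3 and 52.9 CPM in DRF, against 36.9, 41.1, 42.8 and 40.4 CPM in NRF. These were the 2 times without overlap, and at ZT8 the means were nearly equal (47.7 ± 5.52 CPM in DRF and 47.3 ± 2.91 CPM in NRF). ZT0 had the lowest mean in each regimen, 42.4 ± 9.01 CPM in DRF and 31.6 ± 5.78 CPM in NRF, although ZT24 falls at the same clock time and averaged 56.9 ± 7.64 CPM in DRF and 42.7 ± 2.54 CPM in NRF.

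Sesn1 (gene 140742, chromosome 10, 41810574 to 41908436) reached its highest mean at ZT24 and its lowest at ZT12 in both regimens. The highest was 63.8 ± 11.2 CPM in DRF and 50 ± 3.14 CPM in NRF, and the lowest was 37.1 ± 2.58 CPM in DRF and 34.7 ± 2.21 CPM in NRF (SD, n = 4 each). At ZT16 the regimens did not overlap, with 56.6, 54.9, 52.1 and 49.5 CPM in DRF, against 41.1, 31.1, 42.6 and 39.3 CPM in NRF. The means at ZT16 were 53.3 ± 3.13 CPM in DRF and 38.5 ± 5.12 CPM in NRF. Sesn3 (gene 75747, chromosome 9, 14276301 to 14326134), a low transcript, ranged from 1.48 to 3.52 CPM in DRF and from 2.01 to 5.31 CPM in NRF. Its DRF mean was below its NRF mean at all 7 times, and the groups overlapped at each of them.

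**Figure D2:**
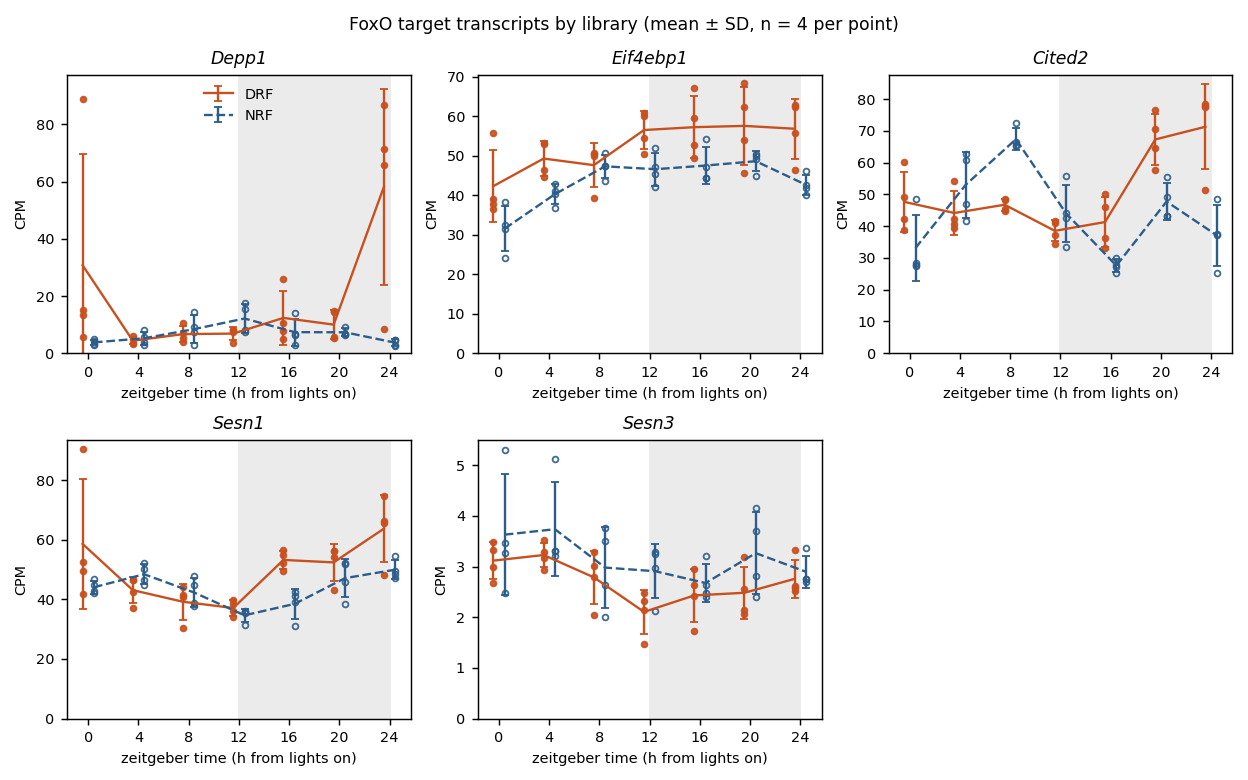
Level in CPM of the 5 FoxO targets at each zeitgeber time (grey, dark phase) in DRF (filled, solid line) and NRF (open, dashed line); points are libraries, and lines and bars are means ± SD of 4, with bars cut at 0. Depp1 in DRF reaches 89 CPM at ZT0 and 86.7 CPM at ZT24 in single libraries, and Cited2 has its highest mean at ZT24 in DRF (71.3 CPM) and at ZT8 in NRF (67.4 CPM).

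The regimens were set against each other at each time to ask which members differed with the time of feeding. At ZT24 5 of the 8 members rose in DRF and none fell. Depp1 was 3.29 ± 0.54 log2 units higher (SE; 9.78-fold, adjusted p = 0.000147) and Cited2 0.94 ± 0.17 higher (1.92-fold, adjusted p = 0.000414). Foxo1 (0.76 ± 0.24, adjusted p = 0.0493), Foxo3 (0.40 ± 0.12, adjusted p = 0.0365) and Eif4ebp1 (0.40 ± 0.12, adjusted p = 0.0365) were the others, while Sesn1 had 0.33 ± 0.14 (adjusted p = 0.146), Foxo4 0.03 ± 0.11 and Sesn3 -0.05 ± 0.15. Of all 12025 genes tested, 5.56% passed at ZT24 in either direction and 3.5% upwards, and the members' median difference was 0.40 log2 units against 0.01 over all genes. Tests here and below are limma on log2(CPM + 1) with Benjamini-Hochberg adjustment over all genes and a threshold of 0.05, and folds on that scale understate the change of low genes.

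The Foxo1 call at ZT24 stood at the threshold: 39 of the 56 fits that each left out 1 library lost it, with an adjusted p of up to 0.147, as did 5 of 14 other settings (up to 0.105). Foxo3 lost its call without any 1 of DRF replicates 1, 3 and 4 or NRF replicates 1, 3 and 4 at ZT24 (up to 0.162), and Eif4ebp1 without DRF replicates 1, 3 or 4 or NRF replicates 1, 2 or 4 (up to 0.15). Both also missed it with total recovered reads as library size and with the deposited values. Depp1 and Cited2 passed in all 56 fits, where the Depp1 difference was 2.97 to 4.03 log2 units, the highest without replicate 2 of DRF at ZT24. At ZT24 the summed endothelial markers were 354 ± 46.5 CPM in DRF and 350 ± 42.7 CPM in NRF, and the summed slow-fibre markers 1854 ± 716 CPM in DRF and 1835 ± 746 CPM in NRF (SD, n = 4 each). The summed adipocyte markers were 440 ± 83.1 CPM in DRF and 298 ± 73.6 CPM in NRF, so not every marker list was this close. Schwann cell markers summed to 409 ± 232 CPM in DRF and 177 ± 71.2 CPM in NRF, where none of the 3 passed. Fits with the slow-fibre or endothelial sum as a covariate, described below, were among the other settings. The part of adipocytes, Schwann cells and other cell types in these calls was not tested.

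At ZT0, the same clock time, Depp1 alone among the members passed (2.03 ± 0.54 log2 units, 4.07-fold, adjusted p = 0.0359), beside 1.85% of all genes (0.881% upwards). That call rested on replicate 1 of DRF at ZT0, without which the difference was 1.28 log2 units (adjusted p = 0.351), and it was also lost without DRF replicate 3 or any 1 NRF library of ZT0 and with no filter (0.0547). Foxo1 at ZT0 had 0.79 ± 0.24 (adjusted p = 0.0765), Cited2 0.54 ± 0.17 (0.0896), Eif4ebp1 0.41 ± 0.12 (0.0576) and Foxo3 0.35 ± 0.12 (0.137), all of which missed the test. Eif4ebp1 passed in 6 of 13 other settings (adjusted p as low as 0.0186), Foxo1 with either marker covariate described below (0.0248 and 0.0288), and Cited2 with library weights or the endothelial covariate (as low as 0.00201). ZT24 and ZT0 were compared within each regimen, and no member passed in DRF or in NRF, beside 0.274% and 0% of all genes (limma). At an unadjusted p under 0.05 limma gave 3 members in DRF and 1 in NRF, a threshold at which all genes were not counted. Depp1 at ZT24 against ZT0 in DRF had a difference of 1.22 ± 0.54 log2 units (adjusted p = 0.217), and Eif4ebp1 had 0.43 ± 0.12 in DRF (adjusted p = 0.0747) and 0.44 ± 0.12 in NRF (adjusted p = 0.431).

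At ZT16, 4 h into the dark phase, Cited2 (0.55 ± 0.17 log2 units, adjusted p = 0.0327) and Sesn1 (0.46 ± 0.14, adjusted p = 0.0289) rose in DRF, which makes 2 of 8 members beside 10.8% of all genes (4.02% upwards). That background itself rested on single libraries, since 40 genes passed in all without replicate 3 of DRF at ZT16 and 1998 without replicate 4, against 1293 with every library. Foxo1 at its common peak did not pass (0.10 ± 0.24, adjusted p = 0.832), nor did Foxo3 (0.26 ± 0.12, adjusted p = 0.154). Without DRF replicates 1 or 3, or any 1 NRF library of ZT16, Cited2 missed the test (up to 0.146). Sesn1 did so without DRF replicates 1, 2 or 3 or NRF replicates 2 or 4 (up to 0.111). Both calls were lost with total recovered reads as library size (adjusted p = 0.145 for Cited2 and 0.155 for Sesn1) and with the deposited values. Of the 3 red blood cell markers, 2 were higher in DRF at ZT16 (median 1.16 log2 units), with sums of 574 ± 449 CPM in DRF and 217 ± 66.3 CPM in NRF (SD, n = 4 each), and within groups Cited2 and Sesn1 deviated with that sum (r = 0.36 and 0.26 over 56 libraries). The part of these markers in the calls was not tested. At ZT4, ZT8, ZT12 and ZT20 no member passed, beside 0.973%, 0.208%, 3.5% and 2.96% of all genes. At an unadjusted p under 0.05 limma gave 1 member at ZT4, 1 at ZT8, 4 at ZT12 and 2 at ZT20. The shares of all genes above are at the adjusted threshold and cannot be set beside these counts, and all genes were not counted at the unadjusted one. At ZT8 Cited2, whose groups did not overlap, had -0.52 ± 0.17 (unadjusted p = 0.00343, adjusted p = 0.244), and Foxo1 at ZT12 had -0.53 ± 0.24 (adjusted p = 0.181).

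Averaged over the day, Eif4ebp1 was higher in DRF (0.24 ± 0.05 log2 units, 1.18-fold, adjusted p = 0.00117) and Sesn3 lower (-0.17 ± 0.06, adjusted p = 0.0437). These 2 of 8 members stood beside 15.9% of all genes, 8.35% upwards and 7.53% downwards. Leaving out 1 library removed the Sesn3 call in 21 of 56 fits, with an adjusted p of up to 0.0787. The call was also lost under quantile scaling, no filter or with the gene-length trend removed (limma, adjusted p up to 0.362). Deviations of the tested genes were correlated with gene length (mean Spearman by group, -0.200 in DRF at ZT16 to 0.193 in NRF at ZT0). Sesn3 has the longest model of the members (15269 bases). None of the 3 factors passed on average: Foxo1 had 0.03 ± 0.09, Foxo3 0.02 ± 0.05 and Foxo4 -0.05 ± 0.04 log2 units. With total recovered reads as library size Foxo4 passed (-0.12, adjusted p = 0.000741), where the median of all genes was -0.07, and with the endothelial covariate Depp1 did (adjusted p = 0.0392).

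**Figure D3:**
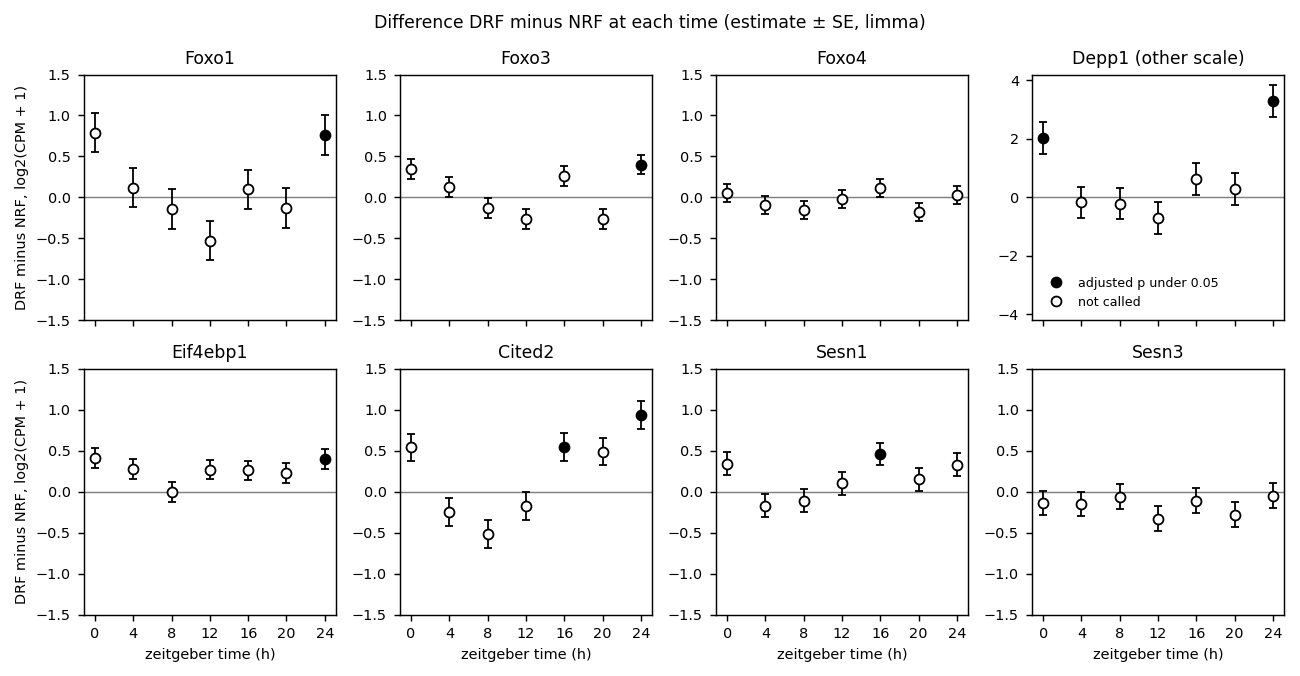
Difference DRF minus NRF in log2(CPM + 1) at each zeitgeber time (estimate ± SE from limma, filled where the adjusted p is under 0.05), with a wider scale for Depp1. The differences of Foxo1, Foxo3, Depp1 and Cited2 are above 0 at ZT0 and ZT24 and below 0 at ZT8 and ZT12, whereas those of Eif4ebp1 are at 0 or above at every time.

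The end of the dark phase (ZT0 and ZT24) was then compared with the end of the light phase (ZT12) within each regimen, which sets the end of the unfed phase against the end of the fed phase in DRF and the reverse in NRF. In DRF 5 of 8 members rose at the end of dark and none fell, beside 20.5% of all genes (11% upwards). They were Depp1 (1.96 ± 0.47 log2 units, adjusted p = 0.00225), Sesn1 (0.67 ± 0.12, adjusted p = 6.29e-05), Foxo1 (0.64 ± 0.21, adjusted p = 0.0233), Cited2 (0.57 ± 0.15, adjusted p = 0.00391) and Foxo3 (0.35 ± 0.10, adjusted p = 0.013). In NRF 4 of 8 passed, beside 9.79% of all genes, 5.32% upwards and 4.47% downwards. Depp1 (-1.41 ± 0.47, adjusted p = 0.0476), Foxo1 (-0.67 ± 0.21, adjusted p = 0.0308) and Eif4ebp1 (-0.34 ± 0.10, adjusted p = 0.024) fell at the end of dark, and Sesn1 rose (0.43 ± 0.12, adjusted p = 0.0144).

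The difference between these contrasts, DRF minus NRF, was tested itself and passed for 4 of 8 members, beside 8.53% of all genes (4.83% upwards). It was 3.37 ± 0.67 log2 units for Depp1 (adjusted p = 0.00058), 1.31 ± 0.29 for Foxo1 (adjusted p = 0.0024), 0.91 ± 0.21 for Cited2 (adjusted p = 0.00259) and 0.64 ± 0.15 for Foxo3 (adjusted p = 0.00311). Sesn1 had 0.24 ± 0.17 (adjusted p = 0.421), Sesn3 0.24 ± 0.19 (0.484), Eif4ebp1 0.13 ± 0.15 (0.642) and Foxo4 0.06 ± 0.13 (0.817). Sesn1 thus rose at the end of dark in both regimens, and its difference between them did not pass. The 4 calls held in all 56 fits that left out 1 library (adjusted p at most 0.0141) and under each of 13 other settings (at most 0.0108).

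Within DRF the Foxo1 call was lost without replicates 1 or 3 of ZT0 or replicates 3 or 4 of ZT12 (adjusted p up to 0.0714), and the Foxo3 call without replicate 4 of ZT12 (0.0577). In NRF, Foxo1 lost its call without replicates 1, 2 or 3 of ZT12 or replicate 1 of ZT24 (up to 0.135), Eif4ebp1 without replicate 2 of ZT0 or replicates 2 or 4 of ZT12 (up to 0.118), Sesn1 without replicate 3 of ZT12 (0.0729), and Depp1 in 31 of 56 such fits (up to 0.157). With total recovered reads as library size, Foxo1 (0.081) and Depp1 (0.0713) in NRF also missed the test, and Depp1 did so with a pseudocount of 5 CPM (0.105) or no filter (0.0624).

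**Figure D4:**
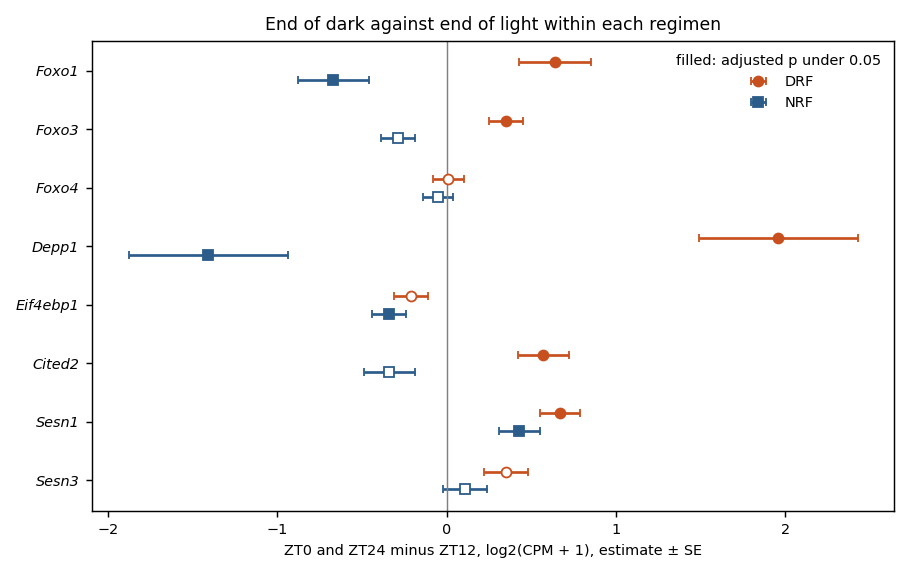
Difference between the end of dark (ZT0 and ZT24) and the end of light (ZT12) in log2(CPM + 1) for each member, in DRF (circles, above) and NRF (squares, below), as estimate ± SE, filled where the adjusted p is under 0.05. Foxo1, Foxo3, Depp1 and Cited2 lie right of 0 in DRF and left of 0 in NRF, Sesn1 lies right of 0 in both, and Foxo4 lies near 0 in both.

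Groups at the end of the fed phase, or of the unfed phase, but at opposite clock times were compared as well. The hours of the feeding windows are not stated, so the time since food may differ between them. At the end of the unfed phase (DRF at ZT0 and ZT24 against NRF at ZT12) 1 member passed, beside 9.77% of all genes (4.86% upwards): Sesn1 was higher in DRF by 0.76 ± 0.12 log2 units (adjusted p = 1.27e-05). Foxo1 (0.11 ± 0.21, adjusted p = 0.777) and Foxo3 (0.09 ± 0.10, adjusted p = 0.621) missed the test, as did Depp1 (2.38-fold, adjusted p = 0.0828) and Cited2 (0.40 ± 0.15, adjusted p = 0.0708). At the end of the fed phase (DRF at ZT12 against NRF at ZT0 and ZT24) 3 members passed, beside 19.8% of all genes, 9.72% upwards and 10.1% downwards. Eif4ebp1 was higher in DRF (0.62 ± 0.10, adjusted p = 3.18e-05), and Sesn3 (-0.45 ± 0.13, adjusted p = 0.0155) and Sesn1 (-0.33 ± 0.12, adjusted p = 0.045) were lower. Without replicate 4 of DRF at ZT12 Sesn3 missed the test (adjusted p = 0.112), and the Sesn1 call was lost in 9 of 56 fits that left out 1 library (up to 0.134). Sesn3 also missed it with the endothelial covariate (0.0958) or quantile scaling, and Sesn1 in 5 of 14 other settings, both marker covariates among them (up to 0.129). In that comparison all 5 endothelial markers were lower in DRF (median -0.56 log2 units) and 2 of 6 muscle markers higher (median of the 6, 0.46).

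A curve of 24 h was fitted to ask how the daily course of each member differed. In DRF 6 of 8 members were rhythmic, beside 48.7% of all genes, so that this share was not far from the background. Their peak-to-trough values and peak times were 1.79 log2 units at ZT22 for Depp1 (adjusted p = 0.00637), 1.03 at ZT19.2 for Foxo1 (0.000999), 0.67 at ZT21.5 for Sesn1 (1.57e-05), 0.61 at ZT22.5 for Cited2 (0.0129), 0.58 at ZT19 for Foxo3 (0.000384) and 0.38 at ZT2.78 for Sesn3 (0.0197). In NRF 5 of 8 were rhythmic, beside 15.1% of all genes. These were Foxo1 (1.21 at ZT15.6, adjusted p = 0.000124), Cited2 (0.83 at ZT7.03, 0.0047), Foxo3 (0.63 at ZT16.3, 0.0002), Sesn1 (0.42 at ZT0.958, 0.0097) and Eif4ebp1 (0.38 at ZT13.6, 0.0311). Without replicate 3 of DRF at ZT16 Sesn3 missed the test (adjusted p = 0.0555), without the ZT24 libraries Cited2 in DRF did (0.121), as did Depp1 in DRF (0.0828), and Eif4ebp1 in NRF lost its call in 5 of 56 fits that left out 1 library (up to 0.0783). Foxo4 passed in neither regimen (0.16, adjusted p = 0.359 in DRF and 0.06, adjusted p = 0.908 in NRF).

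The curves differed between the regimens for 3 of 8 members, beside 13.1% of all genes. From peak to trough, the difference curve of Depp1 spanned 2.77 log2 units (adjusted p = 0.0077), that of Cited2 1.31 (adjusted p = 0.00174) and that of Foxo1 1.02 (adjusted p = 0.0298). Sesn1 (0.53, adjusted p = 0.0596) and Foxo3 (0.43, adjusted p = 0.103) missed the test. The fitted curve has 1 peak a day, while Foxo1 in DRF was high at ZT16 and again at ZT0 and ZT24. Its call was lost without replicate 1 of DRF at ZT0 (adjusted p = 0.0509) or without the ZT0 libraries of both regimens (0.119), and without the ZT24 libraries only Cited2 passed (Depp1 then had an adjusted p of 0.101 and Foxo1 0.178).

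In the authors' deposited table of rhythm tests, Foxo1 (q = 0.0247) and Sesn1 (q = 0.0106) were under 0.05 in DRF, and Foxo3 (q = 0.0675), Cited2 (q = 0.0684), Sesn3 (q = 0.0996) and Depp1 (q = 0.796) were above it. The authors' deposited table for NRF put Foxo1 (q = 8.06e-06), Foxo3 (q = 0.000171), Sesn1 (q = 0.00891) and Depp1 (q = 0.0464) under 0.05, and Cited2 (q = 0.106) and Eif4ebp1 (q = 0.488) above it. Of the 16119 genes the authors listed, 2557 in DRF and 1154 in NRF were under 0.05. Their test (meta2d) is not the curve fit used above. Depp1 passed the fit above in DRF and not in NRF, and the authors' test in NRF and not in DRF. Peak times in the authors' deposited table were ZT19.2 in DRF and ZT15.9 in NRF for Foxo1, and ZT1 in DRF and ZT7.59 in NRF for Cited2.

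Members moved together in part, described here by Pearson correlations of log2(CPM + 1) without a test. Foxo1 and Foxo3 were alike over the 14 group means (r = 0.90) and over the 56 deviations of libraries from their group means (r = 0.76). Depp1 deviated with Sesn1 (0.61), Foxo1 (0.59) and Foxo3 (0.54) within groups. Over the 7 group means of a regimen, Foxo1 and Sesn1 had r = 0.78 in DRF and -0.69 in NRF, and Depp1 and Sesn1 had 0.84 in DRF and -0.76 in NRF. Eif4ebp1 and Sesn3 went opposite ways over the 14 means (-0.78). The values of a library share its size factor and its tissue piece.

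The genes outside the group whose 14 group means were most like those of a member were Plin4, Max and Noct for Foxo1 (r = 0.90 each) and Max (0.94), Fbxw8 (0.92) and Wbp1l (0.92) for Foxo3. Plin4 coats lipid droplets, Max is the dimer partner of MYC, and Noct is a clock-linked phosphatase. Depp1 was most like Dedd2 (0.87), Slc17a5 (0.86) and Lmbr1l (0.84), and Cited2 most like Gigyf1 (0.91), Foxk1 (0.90), a forkhead factor, and Ercc4 (0.88). For Sesn1 they were Pnrc1 (0.94), Supt7l (0.91) and Isoc2a (0.89), and for Eif4ebp1 Mpv17l2 (0.95), Eif6 (0.94), an initiation factor of translation, and Selenok (0.92). Foxo4 was most like Kif1c (0.97), Rfk (0.97) and Sbf1 (0.94), and Sesn3 most like Fat4 (0.90), Garre1 (0.89) and Bag4 (0.88).

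Some libraries stood at the edge of their group in most members. The share of all genes in which they did so was not counted. Replicate 1 of DRF at ZT0 was the highest of its group in 7 of 8 members, all but Sesn3, and replicate 2 of DRF at ZT24 was the lowest of its group in 7 of 8, all but Foxo4. The high replicate had 1278 CPM of summed slow-fibre markers and 291 CPM of summed endothelial markers, among 1242 to 2815 CPM and 287 to 457 CPM in its group. The low replicate had the lowest sums of its group, 965 CPM of slow-fibre markers (highest 2714 CPM) and 298 CPM of endothelial markers (highest 401 CPM).

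Marker levels of other fibre and cell types moved with some of these results. Within groups, Foxo1 and Depp1 deviated with the slow-fibre sum (r = 0.49 and 0.46 over 56 libraries), Depp1 also with the sum of 5 endothelial markers (0.52), and Foxo4 against the endothelial sum (-0.60) and with the muscle sum (0.76). At the end of dark 4 of the 5 endothelial markers rose in DRF and 1 of 5 in NRF, while none of the 5 slow-fibre markers passed in either. The slow-fibre markers still had large median differences, 2.24 log2 units in DRF and 1.19 in NRF, with a wide spread within groups. In DRF their sum was 1672 ± 764 CPM at ZT0, 1854 ± 716 CPM at ZT24 and 724 ± 783 CPM at ZT12 (SD, n = 4 each). Of the 6 adipocyte markers, 1 rose in DRF and 1 fell in NRF. Of the 3 Schwann cell markers, 2 rose in DRF (median of the 3, 1.39 log2 units) and none passed in NRF (0.08). No fibroblast, macrophage or liver marker that was tested passed in either regimen. The part of the Schwann cell markers in this contrast was not tested. With the slow-fibre sum as a covariate, a setting added after the data were seen, the Foxo1 contrast within DRF was 0.44 log2 units (adjusted p = 0.115). With the endothelial sum as a covariate, Foxo1 (0.46, adjusted p = 0.187), Foxo3 (0.29, adjusted p = 0.0979) and Depp1 (1.07, adjusted p = 0.118) all missed the test within DRF, and 2 members, Cited2 and Sesn1, passed.

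The DRF minus NRF difference of that contrast was fitted with the same covariates, both added after the data were seen. With the slow-fibre sum it was 1.22 log2 units for Foxo1 (adjusted p = 0.00107), 0.62 for Foxo3 (0.00309), 3.18 for Depp1 (0.000257) and 0.90 for Cited2 (0.00265). With the endothelial sum it was 1.24 for Foxo1 (adjusted p = 0.00298), 0.62 for Foxo3 (0.0038), 3.05 for Depp1 (0.000292) and 0.87 for Cited2 (0.00327). Adipocyte markers summed to 440 ± 83.1 CPM in DRF and 298 ± 73.6 CPM in NRF at ZT24 (SD, n = 4 each), where none of the 6 passed, and the 3 red blood cell markers were higher in DRF on average over the day (median 0.55 log2 units). The part of these 2 lists in the results was not tested.

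**Figure D5:**
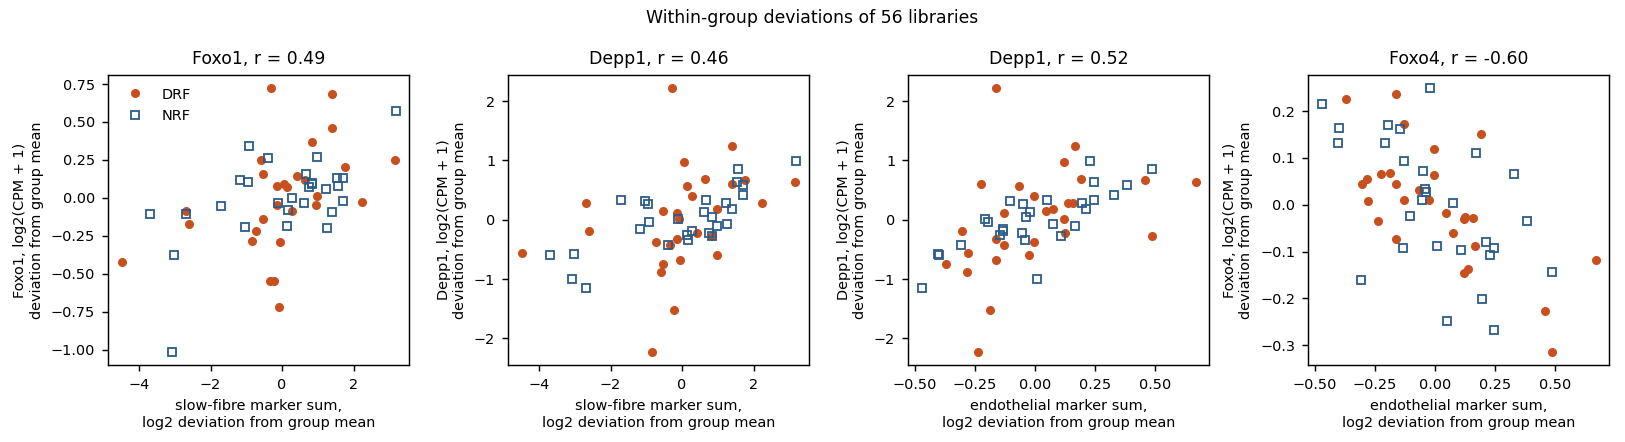
Deviation of each of 56 libraries from its group mean (log2) for Foxo1 and Depp1 against the summed slow-fibre markers, and for Depp1 and Foxo4 against the summed endothelial markers, in DRF (filled) and NRF (open). The correlations are 0.49, 0.46, 0.52 and -0.60, and the slow-fibre sum spans far more within groups than the endothelial sum.

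Other genes of the pathway were counted in 4 lists chosen with earlier results of these data known. Of 25 other FoxO targets of muscle, 15 rose in DRF at ZT24 and none fell, beside 3.5% of all genes upwards (median 0.44 log2 units against 0.01 over all genes). At the end of dark within DRF 14 rose and none fell, beside 11% of all genes upwards. Within NRF 5 passed, 1 up and 4 down, beside 5.32% of all genes upwards and 4.47% downwards. Their curves differed between the regimens in 9 of 25, beside 13.1% of all genes. Fbxo21, a ubiquitin ligase subunit, averaged 17.8 ± 2.58 CPM at ZT24 and 10.3 ± 0.938 CPM at ZT12 in DRF, against 11.2 ± 1.95 CPM at ZT24 and 17.1 ± 2.87 CPM at ZT12 in NRF. Pik3ip1, a membrane inhibitor of PI3 kinase, averaged 63.2 ± 12.6 CPM in DRF and 33.7 ± 3.43 CPM in NRF at ZT24 (0.87 ± 0.16 log2 units, adjusted p = 0.000581). Ccng2, an atypical cyclin, averaged 25.9 ± 4.93 CPM in DRF and 17.2 ± 0.74 CPM in NRF at ZT24 (0.54 ± 0.11, adjusted p = 0.00114). Pdk4, which restrains pyruvate dehydrogenase, had a curve that differed as well (adjusted p = 1.77e-06).

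Of 14 genes of the insulin and Akt input, 6 had curves that differed between the regimens, beside 13.1% of all genes, and 4 of them are named here. The receptors Igf1r and Insr peaked in the light in DRF, Igf1r at ZT3.51 with a swing of 0.88 log2 units and Insr at ZT3.48 with 0.69, against 0.46 at ZT8.16 for Igf1r and 0.19 at ZT6.29 for Insr in NRF, where Insr missed the rhythm test (adjusted p = 0.327). Pik3r1, a regulatory subunit of PI3 kinase, had a smaller swing in DRF (0.56 at ZT16.3) than in NRF (1.89 at ZT16.2), and its curves differed (adjusted p = 0.00192). Pdpk1, the kinase that activates Akt, had 0.33 at ZT6.01 in DRF and 0.06 in NRF, where it missed the test (adjusted p = 0.802).

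Of 14 mTORC1 inputs and brakes, 1 had a different curve, a share below the 13.1% of all genes: Ddit4l, a REDD1 relative that restrains mTORC1, swung by 0.74 log2 units in DRF and 1.55 in NRF (adjusted p = 0.0118 for the difference). It averaged 279 ± 58.2 CPM at ZT24 and 169 ± 26.2 CPM at ZT12 in DRF, against 313 ± 25.1 CPM at ZT24 and 90.8 ± 26.1 CPM at ZT12 in NRF. Of the CITED2 partners and targets, Tfap2a and Cited1 were below the filter, and of the 4 tested 1 had a different curve, beside the same 13.1% of all genes: Cited4, a relative of Cited2, averaged 5.78 ± 1.63 CPM at ZT24 and 17.6 ± 4.07 CPM at ZT12 in DRF, against 10.3 ± 2.92 CPM at ZT24 and 6.46 ± 2.82 CPM at ZT12 in NRF. Its contrast of end of dark against end of light was -1.49 ± 0.23 log2 units in DRF (adjusted p = 7.27e-06) and 0.61 ± 0.23 in NRF (adjusted p = 0.0971), with signs opposite to those of Cited2.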

How the data were processed

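Polyadenylated RNA was read as paired ends of 100 bases, per the labels' protocols, and HISAT2, Bowtie2, RSEM, mm10 and GRCm38.p6 are listed in the submitters' processing notes, with no versions. The authors deposited 1 table headed TPM, whose values are a score: a scaled log2(1 + CPM) divided by gene length. This formula was inferred from the values and inverted gene by gene, which gave read counts (whole within 0.001 reads, or 2-decimal estimates within 0.1 of a 0.01 step, for 90% of a gene's values), library sizes and lengths. Counts came out for 17443 of 19072 genes. The other 1629 had under 4 values above 0. All 8 members gave whole counts and 1 length. Run forwards, the formula returned the values of tested genes within a relative deviation of 2.8e-13, which checks rounding only. The p-values (q) of rhythm are copied from the authors' deposited tables.

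CPM used the library sizes in the deposited scores, 0.854 to 1.205 times the recovered totals. Genes averaging 1 CPM or more (12025; 10584 whole, 1441 decimal) were fitted with limma 3.58.1 (lmFit, eBayes with trend) in R 4.3.3 on log2(CPM + 1), with all 14 groups in each fit. Averages over the day counted ZT0 and ZT24 as 1 of 6 times. Rhythm was a 24 h cosine and sine per regimen, with moderated F tests. The steps were tested on simulated data. All 8 members are named in every comparison, of each other list up to 4 genes past the threshold with the smallest adjusted p for the curve difference, and per member the 3 most correlated genes that averaged 5 CPM or more and had whole counts. Members and lists were chosen with earlier results of these data known. Replicate numbers did not pair the libraries: the mean correlation of same-numbered deviations was -0.017. Alternatives covered scaling, pseudocount, filter, library weights, gene length, replicate number, the times fitted, marker covariates and each library left out. The values of 1 cell type marker list are not reported here.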

Additional observations from a re-analysis of the deposited data

Results flagged for a closer look

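The levels of 13 of the 112 combinations of member, regimen and time had 1 library set far apart from the other 3 (a gap to the nearest that is large against the range of the group, by Dixon's criterion). For normally spread values chance gives this in about 1 of 20. The members share the same libraries, so the combinations are not independent. The share over all genes was not counted, so the count cannot be read as particular to these members. High libraries in DRF were replicate 1 at ZT0 for Depp1 (89 CPM, the others at 15 or below) and for Eif4ebp1 (55.8 CPM, the others at 39.2 or below), and replicate 1 at ZT24 for Sesn3 (3.32 CPM, the others at 2.62 or below). Low libraries in DRF were replicate 2 at ZT24 for Foxo1 (33.8 CPM, the others at 43.5 or above) and for Cited2 (51.3 CPM, the others at 77.5 or above), replicate 1 at ZT12 for Depp1 (3.49 CPM, the others at 7.58 or above), replicate 3 at ZT8 for Eif4ebp1 (39.4 CPM, the others at 50 or above) and replicate 3 at ZT20 for Sesn1 (43.2 CPM, the others at 54.1 or above). High libraries in NRF were replicate 2 at ZT12 for Foxo3 (53.2 CPM, the others at 46.5 or below), replicate 3 at ZT20 for Depp1 (9.32 CPM, the others at 6.88 or below), replicate 1 at ZT0 for Cited2 (48.6 CPM, the others at 28.4 or below), and for Sesn3 replicate 1 at ZT4 (5.12 CPM, the others at 3.31 or below) and at ZT24 (3.37 CPM, the others at 2.76 or below).

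Effects that differed between DRF and NRF by a test of the difference (limma, Benjamini-Hochberg) were the daily curves of Depp1 (2.77 log2 units, adjusted p = 0.0077), Cited2 (1.31, adjusted p = 0.00174) and Foxo1 (1.02, adjusted p = 0.0298). The contrast of the end of dark with the end of light also differed, by 3.37 log2 units for Depp1 (adjusted p = 0.00058), 1.31 for Foxo1 (0.0024), 0.91 for Cited2 (0.00259) and 0.64 for Foxo3 (0.00311).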

How the results depend on the processing

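Of the members called, 2 passed on average over the day, and 1 under quantile scaling, no filter, a mean CPM of at least 5 or with the gene-length trend removed, since Sesn3 no longer passed or was filtered out. The end-of-dark contrast passed for 5 members in DRF (2 with the endothelial covariate) and 4 in NRF (2 with total recovered reads as library size). Rhythm passed for 6 in DRF (3 with the endothelial covariate), and the curve difference for 3 (5 under quantile scaling, 1 without ZT24). Leaving out 1 library gave 1 to 2 members on average, 3 to 6 and 1 to 4 for the contrast in DRF and NRF, 5 to 7 and 4 to 5 for rhythm in DRF and NRF, and 3 to 5 for the curve difference. Foxo4 in DRF at ZT12 against NRF at ZT0 and ZT24 reversed with total reads to -0.18 log2 units (adjusted p = 0.0182), where the median of all genes shifted by -0.20, as it did by -0.15 at ZT12 and ZT16, -0.12 at ZT0 and -0.13 for ZT24 against ZT0 in NRF, and by 0.11 for the contrast in DRF. Of all genes, that scaling called 196 higher and 3303 lower on average (otherwise 1004 and 905), 49 and 482 at ZT0 (106 and 116), 34 and 2002 at ZT16 (483 and 810), 149 and 345 at ZT24 (421 and 248), and 1922 and 548 for the contrast in DRF (1319 and 1145). Library weights called 1072 genes at ZT0 (otherwise 222), 531 at ZT4 (117), 57 at ZT8 (25), 1358 at ZT12 (421), 2484 at ZT16 (1293), 660 at ZT20 (356), 1263 at ZT24 (669), 4508 for the contrast in DRF (2464), 2132 for its difference between regimens (1026) and 2590 for the curve difference (1578). The endothelial covariate called 3469 genes on average (otherwise 1909), 1421 at ZT24 (669), 1585 for the contrast in DRF (2464) and 1871 in NRF (1177). With the gene-length trend removed 1056 passed on average (1909) and 127 at ZT20 (356), and with the deposited values 668 at ZT16 (1293). Without ZT24, 1017 passed for the curve difference (1578). Leaving out 1 library gave 1269 to 2917 genes on average, 65 to 274 at ZT0, 39 to 150 at ZT4, 7 to 30 at ZT8, 51 to 1118 at ZT12 (lowest without DRF replicate 1), 40 to 1998 at ZT16, 60 to 967 at ZT20, 267 to 1087 at ZT24, 1538 to 2744 and 876 to 1293 for the contrast in DRF and NRF, 722 to 1344 for its difference, 580 to 1550 and 1050 to 2645 for DRF against NRF at opposite clock times (end of the unfed and of the fed phase), 0 to 245 for ZT24 against ZT0 in DRF, 4979 to 6057 and 1626 to 1920 for rhythm in DRF and NRF and 1370 to 2208 for the curve difference. With the replicate block, which the libraries' numbers do not support as a pairing (8 of 56 libraries were most like their own number), Depp1 missed the test for the contrast in NRF (adjusted p = 0.054), which left 3 members, and Foxo1 did at ZT24 (0.0572). Eif4ebp1 at ZT0 (0.0495) and Cited2 for DRF at ZT0 and ZT24 against NRF at ZT12 (0.0497) then passed, and no other call of a member changed. The edgeR and DESeq2 tests were not run, because the deposited unit is a score. The cause of these changes was not tested. Depth limits Sesn3, with 44 to 188 reads per library.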
